A study of Mus musculus with 24 samples.

Results

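Dbp, Tef, Hlf, Nfil3, Bhlhe40, Bhlhe41 and Rora, transcription factors that the circadian clock drives, were followed in endothelium of the aorta and of skeletal muscle. The genes were chosen with earlier results of these data known, so their ranks, shares and p-values below describe these data and do not support the choice. The accession of a non-control probe mapped to 7 of 7 genes, through 12 of 41174 probes, out of 18539 gene symbols on the array. The brightest probe of each gene in a tissue was read. Male C57BL/6J mice (WT) and galectin-3 knockout mice (KO, B6.Cg-Lgals3 tm1Poi/J, with a deletion in the gene in every cell) were fed a high-fat diet (HFD, 60% of calories from fat) or chow (12% of calories from fat) for 8 weeks, starting at an age of 8 weeks. CD105+/CD45- cells of 3 to 4 pooled mice, about 10000 cells a sample, were sorted from each tissue and hybridised to single-colour Agilent arrays. The 8 groups of tissue, strain and diet held 3 libraries each, 1 from each of 3 experiments, and the aorta and the muscle of a pool came from the same mice. The sort was shared by all 8 groups, and each library is a pool, so the spread given here is that between pools of mice. The hour at which tissue was collected was not given in the sources used here.

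The mammalian clock is a loop in which Arntl (Bmal1) and Clock switch on their own repressors, the Per and Cry genes, through E-box sequences. The PAR bZIP factors Dbp, Tef and Hlf are switched on through the same sequences and activate genes that carry a D-box, while Nfil3 (E4bp4) binds the D-box and represses. Bhlhe40 (Dec1) and Bhlhe41 (Dec2) bind E-boxes and repress, and Rora binds the ROR element, where it activates Arntl and Nfil3 and competes with the repressors Nr1d1 and Nr1d2. In mouse vessels, as in most organs, Dbp and Arntl peak at opposite times of day.

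A level is the log2 of a probe's processed signal after division by the 75th percentile of its array, so levels compare libraries for 1 probe and never 1 gene with another. Overlap between the libraries of groups describes the printed values, and the share of all probes without overlap was not counted. The 75th percentile lay between 2390.4 and 5937.9 on the 24 arrays, and 59.55% to 75.66% of the non-control spots were well above background. The probes of Dbp, Tef, Hlf, Nfil3, Bhlhe40 and Rora were well above background on 12 of 12 arrays of each tissue. The Bhlhe41 probe was so on 8 of 12 aortic and 2 of 12 muscle arrays. All 11 endothelial markers (such as Pecam1 and Cdh5) were well above background on all 12 arrays of each tissue. The same held in the aorta for all 8 fibroblast, all 8 smooth muscle and 11 of 12 adipocyte markers, and for 3 of 8 macrophage markers. It also held in the aorta for 6 of 10 skeletal muscle fibre markers and for the 5 brown adipocyte markers with a value on each array. In muscle it held for all 10 skeletal muscle fibre markers, 7 of 8 fibroblast and 2 of 8 macrophage markers. It held there too for 8 of 12 adipocyte, 6 of 8 smooth muscle and 2 of 6 brown adipocyte markers. Detection of endothelial markers thus does not measure how pure the sort was. Groups are named by their labels, which the arrays did not bear out in every respect. The Lgals3 probe was well above background in every KO library and higher in KO than in WT in 11 of 12 pairs, and where it lies against the deleted exons was not given in the sources used here, so it does not check the labels. At 33 probes that separated the strains in experiments 2 and 3, chosen after their values were seen, and placed on a scale where 0 was the WT and 1 the KO level, the chow libraries of experiment 1 lay at 0.05 and 0.08 in WT and at 1.01 and 0.91 in KO. The HFD libraries of experiment 1 lay between, at 0.20 and 0.43 in WT and at 0.42 and 0.43 in KO (aorta, then muscle). Statements on the strains below are therefore statements on libraries labelled WT and KO, and values without experiment 1 are given beside the differences between the strains.

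Promoter windows, 250 bases before to 50 after a RefSeq start (GRCm38.p6), were searched for sequences that clock factors bind. Sequence outside these windows was not searched, so a window without a match does not mean a gene without such a site. A promoter entry was at hand for 6 of the 7 genes, with 2 for Tef. Both strands were searched for the E-box (CACGTG), a weaker E-box (CACGTT), the D-box (TTATGNAA) and the ROR element (NNTAGGTCA), which do not overlap in these windows. The E-box was found in both Tef promoters and in that of Bhlhe41, and in 7.15% of all 32851 promoters of this length. The ROR element was found in the Nfil3 promoter, on the other strand, and in 2.58% of all promoters. Neither the weaker E-box, held by 4.68% of all promoters, nor the D-box, held by 3.38%, was found in a window of the 6 genes. The 4 windows with a match, and that of Dbp, which has none of these letters, follow 5′ to 3′ on the gene's strand with the matches in capitals.
Dbp, chr7:45704997-45705296, plus strand: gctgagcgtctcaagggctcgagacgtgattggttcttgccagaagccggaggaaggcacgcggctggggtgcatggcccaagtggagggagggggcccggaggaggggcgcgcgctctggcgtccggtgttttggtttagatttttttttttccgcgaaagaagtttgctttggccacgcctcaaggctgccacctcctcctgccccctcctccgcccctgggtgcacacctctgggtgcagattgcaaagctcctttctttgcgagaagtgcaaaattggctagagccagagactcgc
Tef (upstream start), chr15:81802423-81802722, plus strand: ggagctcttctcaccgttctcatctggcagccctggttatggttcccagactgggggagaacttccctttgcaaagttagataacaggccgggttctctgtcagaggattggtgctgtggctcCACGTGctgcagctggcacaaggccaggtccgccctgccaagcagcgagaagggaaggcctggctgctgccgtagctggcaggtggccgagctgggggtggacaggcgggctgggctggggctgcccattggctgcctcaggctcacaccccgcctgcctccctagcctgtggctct
Tef (downstream start), chr15:81811164-81811463, plus strand: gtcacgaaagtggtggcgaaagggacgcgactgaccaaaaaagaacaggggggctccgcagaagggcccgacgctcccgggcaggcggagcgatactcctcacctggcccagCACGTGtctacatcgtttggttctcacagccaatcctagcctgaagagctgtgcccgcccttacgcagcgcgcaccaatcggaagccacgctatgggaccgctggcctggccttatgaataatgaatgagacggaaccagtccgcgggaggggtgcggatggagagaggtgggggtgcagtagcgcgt
Nfil3, chr13:52980990-52981289, minus strand: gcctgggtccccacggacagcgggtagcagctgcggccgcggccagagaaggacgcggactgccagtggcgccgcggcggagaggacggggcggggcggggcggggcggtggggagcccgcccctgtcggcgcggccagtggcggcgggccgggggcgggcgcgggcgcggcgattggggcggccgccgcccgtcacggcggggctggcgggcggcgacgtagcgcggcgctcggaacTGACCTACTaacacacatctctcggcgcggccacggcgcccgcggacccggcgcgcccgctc
Bhlhe41, chr6:145865371-145865670, minus strand: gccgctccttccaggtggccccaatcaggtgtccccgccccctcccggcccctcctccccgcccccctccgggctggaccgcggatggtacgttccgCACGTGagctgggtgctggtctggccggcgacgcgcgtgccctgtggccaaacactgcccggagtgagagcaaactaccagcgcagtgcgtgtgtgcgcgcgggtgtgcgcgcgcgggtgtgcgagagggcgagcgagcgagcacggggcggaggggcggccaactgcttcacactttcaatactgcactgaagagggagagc

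Dbp, the PAR bZIP factor that answers most directly to Arntl and Clock, rose on HFD in both tissues. In the aorta its level was 2.42, 1.40 and 0.66 in WT on chow (experiments 1, 2 and 3) and 4.36, 3.15 and 2.34 in WT on HFD. It was 2.58, 2.05 and 1.29 in KO on chow and 5.46, 4.93 and 3.81 in KO on HFD. The chow and HFD libraries of KO did not overlap, whereas those of WT did, and within each experiment the HFD library was the higher. In muscle the level was 2.22, 1.70 and 1.25 in WT on chow and 3.54, 2.51 and 2.42 in WT on HFD. It was 2.51, 1.46 and 1.09 in KO on chow and 5.61, 4.22 and 3.13 in KO on HFD, and neither strain's chow and HFD libraries overlapped.

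**Figure D1:**
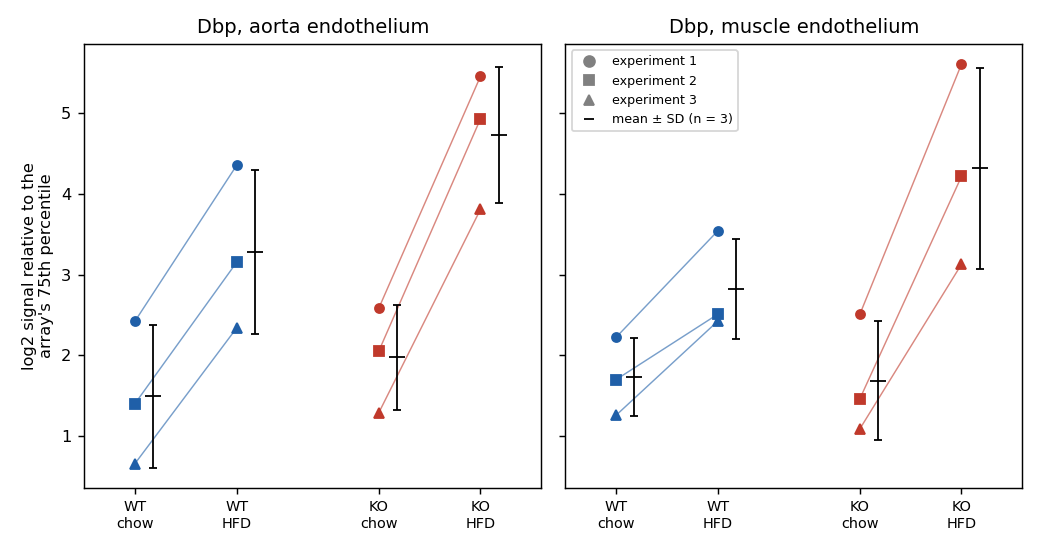
Dbp in the 24 libraries. The y axis gives the level (log2), each line joins the chow and HFD libraries of an experiment, and black bars are the mean ± SD of 3 libraries. Each of the 12 lines rises, and the libraries of experiment 1 are the highest of their group in all 8 groups.

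The log2 [HFD/chow] of Dbp in the aorta averaged 1.79 ± 0.13 for WT and 2.76 ± 0.21 for KO (SD over 3 experiments). Muscle gave 1.10 ± 0.26 for WT and 2.63 ± 0.54 for KO. Dbp was higher on HFD in 12 of 12 pairs, as were 0.949% of the 27387 probes tested over both tissues. Averaged over the strains, with the experiment of each strain as a block, the difference was 2.27 (SE 0.17) in the aorta, with an adjusted p of 0.0192 by limma, and 1.87 (SE 0.19) in muscle, with an adjusted p of 0.0358. Over the mean of both tissues of a pool it was 2.07 (SE 0.15), with an adjusted p of 0.0232 by limma. No other member was called in these 3 fits, which tested 7 genes in the aorta, 6 in muscle and 7 over both, and in which 0.00773%, 0.167% and 0.157% of all probes were called higher. At an unadjusted p under 0.05 by limma were 4 members in the aorta, 4 in muscle and 6 over both, against 15.1%, 16.4% and 18.2% of all probes. The counts in the aorta and over both include Bhlhe41, which entered those tests through its aortic HFD groups alone. Ordered by p, Dbp stood at position 5 of 25865 probes in the aorta, 18 of 25682 in muscle and 3 of 27387 over both. An exact sign-flip test over the 6 pairs gave p = 0.0312 in each tissue, the smallest that 6 pairs allow. The test takes the 6 pairs as independent, but the WT and KO pairs of an experiment shared a slide.

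The call rested on all 3 experiments: with any 1 left out, limma called 0 probes of any gene in these fits, while the Dbp difference stayed between 2.21 and 2.36 in the aorta and between 1.69 and 2.00 in muscle. It was also lost without the block and without the filter on dim probes, and over all alternatives limma's adjusted p lay between 0.00304 and 0.310 in the aorta and between 0.00898 and 0.276 in muscle. Dbp differed far more between experiments than its diet ratio did. In each of the 8 groups the library of experiment 1 was the highest and that of experiment 3 the lowest, with a pooled SD of the levels of 0.86 in the aorta and 0.82 in muscle. Experiment 1 was scanned in a session of its own and each experiment on slides of its own, so experiment, slide and, for experiment 1, scan session cannot be told apart. The aorta and the muscle of a pool gave like Dbp levels, with r = 0.96 over 12 pools, and 0.88 after subtraction of the group means, as a description over pools that share mice and experiments.

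Tef, the second PAR bZIP factor, was higher on HFD in 11 of 12 pairs, a rule for which no share of all probes was counted, and did not pass the test. Its aortic levels were 1.04, 0.52 and 0.76 in WT on chow, 1.30, 0.94 and 1.10 in WT on HFD, 1.00, 0.85 and 1.30 in KO on chow and 2.03, 1.16 and 1.64 in KO on HFD. In muscle they were 0.86, 0.05 and 0.22 in WT on chow, 0.97, -0.04 and 0.76 in WT on HFD, 1.11, 0.28 and 0.06 in KO on chow and 2.25, 0.96 and 1.47 in KO on HFD. The chow and HFD libraries overlapped in each tissue and strain. The aortic log2 [HFD/chow] averaged 0.34 ± 0.08 for WT and 0.56 ± 0.41 for KO, and that of muscle 0.18 ± 0.33 for WT and 1.07 ± 0.37 for KO (SD over 3 experiments). Over the strains the difference was 0.45 in the aorta (adjusted p = 0.326 by limma) and 0.63 in muscle (adjusted p = 0.168). A dimmer Tef probe, well above background on 9 of 12 aortic arrays, gave -0.49 in WT aorta, the opposite sign.

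Hlf, the third PAR bZIP factor, varied more between experiments than between diets. Its group means ran from -1.10 in KO on chow to 0.89 in KO on HFD in the aorta, and from -1.14 in WT on HFD to -0.12 in KO on HFD in muscle, with pooled SDs of 1.25 and 1.11, and none of the neighbours in either order differed beyond their spread. In each of the 8 groups the library of experiment 1 was the highest. The log2 [HFD/chow] in the 3 experiments was -0.14, 2.30 and -0.04 in WT aorta and 2.33, 3.13 and 0.51 in KO aorta. The muscle ratios of WT were 0.04, -0.10 and -1.24, and those of KO were 0.72, 0.11 and 0.49. All 6 KO ratios were above 0, against 2 of 6 WT ratios, and the share of all probes with this pattern was not counted. For the KO ratio minus the WT ratio limma's unadjusted p was 0.208 in the aorta and 0.083 in muscle. The WT mean in the aorta, 0.71, came from experiment 2 and was -0.09 without it. Over the strains the aortic difference of 1.35 (SE 0.46) did not pass the test (adjusted p = 0.268 by limma) and ran from 0.67 to 1.91 with an experiment left out, and that in muscle was 0.00.

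Nfil3, the repressor at the D-box, was lower in muscle on HFD in 6 of 6 pairs, as were 5.68% of the 25682 probes tested. Its muscle levels were 2.66, 2.46 and 2.15 in WT on chow and 1.63, 2.10 and 1.69 in WT on HFD, and 2.74, 1.78 and 2.16 in KO on chow and 0.71, 1.15 and 1.10 in KO on HFD. Neither strain's chow and HFD libraries overlapped, and the 3 KO libraries on HFD were the 3 lowest of the 12. The log2 [HFD/chow] averaged -0.62 ± 0.36 for WT and -1.24 ± 0.71 for KO (SD over 3 experiments), and the difference over the strains, -0.93 (SE 0.22), did not pass the test (adjusted p = 0.139 by limma). The aortic ratios were -1.12, 0.82 and -0.85 for WT, and those of KO were -1.68, 0.37 and -1.47. Both aortic pairs of experiment 2 thus ran against those of experiments 1 and 3. Over the strains the aortic difference was -0.65 (SE 0.38), with an adjusted p of 0.453 by limma.

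**Figure D2:**
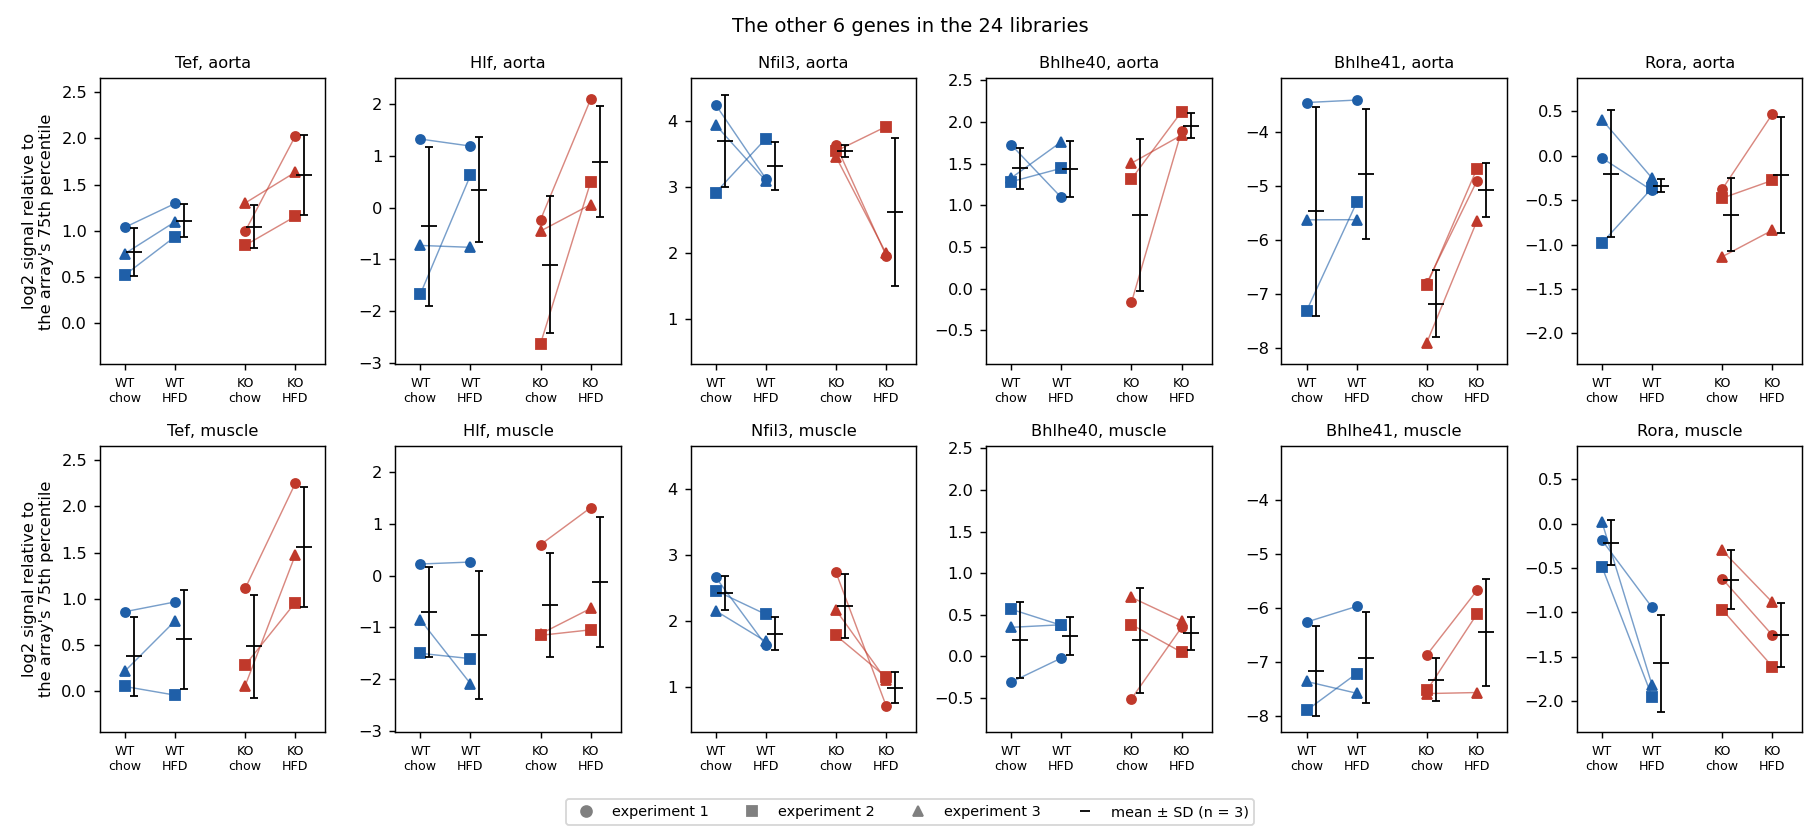
Tef, Hlf, Nfil3, Bhlhe40, Bhlhe41 and Rora in the 24 libraries, with the aorta above and muscle below. The y axis gives the level (log2) on 1 scale per gene, lines join the chow and HFD libraries of an experiment, and black bars are the mean ± SD of 3 libraries. In muscle each of the 6 lines of Nfil3 and of Rora falls, while in the aorta the 6 lines of Bhlhe41 rise.

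Of the Dec repressors, Bhlhe41 gave the higher signal on HFD in 6 of 6 aortic pairs, as did 5.77% of the 25865 probes tested, and Bhlhe40 had no common direction. Bhlhe41 entered the aortic test through its HFD groups alone, since 3 of 3 arrays were well above background in both of them, against 2 of 3 in WT on chow, so its differences below are given as measured, and the counts of members at a p in the aorta and over both tissues include it. The Bhlhe41 levels in the aorta were -3.45, -7.31 and -5.62 in WT on chow and -3.40, -5.30 and -5.62 in WT on HFD. They were -6.79, -6.83 and -7.89 in KO on chow and -4.90, -4.67 and -5.64 in KO on HFD, with no overlap in KO. The probe was well above background on 0 of 3 arrays of KO on chow and on 3 of 3 of KO on HFD. Set against the lowest signal well above background on each chow array, Bhlhe41 was 1.80-fold higher in KO aorta on HFD. That signal is not a strict upper limit for a spot that was not well above background, so 1.80 is no sure minimum. As measured the difference was 2.10 ± 0.19 on the log2 scale (SD, n = 3), with an adjusted p of 0.278 by limma. In WT aorta the ratio was 0.05, 2.01 and 0.00, and its mean of 0.69 was 0.02 without experiment 2. In muscle the probe was not well above background on 10 of 12 arrays and was not tested.

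Bhlhe40, a stress- and hypoxia-inducible as well as clock-driven factor, changed by less than its spread in WT aorta (log2 [HFD/chow] -0.01 ± 0.55), WT muscle (0.04 ± 0.24) and KO muscle (0.08 ± 0.67; SD, n = 3). In KO aorta its levels were -0.17, 1.32 and 1.51 on chow and 1.89, 2.12 and 1.84 on HFD, without overlap. The ratio there was 1.07 ± 0.89 with 2.06 in experiment 1, was 0.57 without that experiment, and did not pass the test (adjusted p = 0.429 by limma). Of a list of 14 hypoxia-inducible genes (such as Vegfa and Bnip3), 0 were called on HFD in either tissue by limma, with 1 higher and 4 lower at an unadjusted p under 0.05 in the aorta and 0 and 1 in muscle. The median difference of the list was -0.18 in the aorta, against 0.01 over all probes. The smallest p-values were those of Bnip3, at -0.86 (SE 0.32), and Vegfa, at -0.47 (SE 0.18), in the aorta, and of Bnip3, at -0.61 (SE 0.21), and Adm, at -0.38 (SE 0.18), in muscle, and the lowest adjusted p among them was 0.237 by limma. Of 22 immediate early genes (such as Fos and Egr1), 20 were tested in each tissue, and limma gave 0 of them an unadjusted p under 0.05. The smallest p-values were those of Zfp36, at -0.38 (SE 0.20), and Btg2, at -0.50 (SE 0.27), in the aorta, and of Klf4, at -0.24 (SE 0.15), and Junb, at -0.35 (SE 0.22), in muscle.

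Rora, the activator at ROR elements, was lower on HFD in 6 of 6 muscle pairs, as were 5.68% of probes, and had no common direction in the aorta. In muscle its levels were -0.19, -0.48 and 0.02 in WT on chow and -0.94, -1.95 and -1.82 in WT on HFD, and -0.62, -0.97 and -0.30 in KO on chow and -1.26, -1.61 and -0.89 in KO on HFD. The WT libraries did not overlap between the diets, and the KO libraries did. The log2 [HFD/chow] averaged -1.35 ± 0.55 for WT and -0.62 ± 0.03 for KO (SD over 3 experiments). Over the strains the difference was -0.99 (SE 0.18), with an adjusted p of 0.0996 by limma, and it passed the test with the slide as the block and with dimmer probes left out of the test. The aortic ratios were -0.37, 0.62 and -0.66 for WT, and those of KO were 0.85, 0.20 and 0.30. The diet response of Rora was higher in the aorta than in the muscle of the same pool in 6 of 6 pool pairs, by 1.14 (SE 0.28). The share of all probes that did so was not counted. The exact sign-flip p of this Rora difference was 0.0312, the smallest possible with 6 pairs, and limma gave an adjusted p of 0.346 over all probes. This sign-flip test, too, takes as independent the pairs of strains that shared slides. Of the 7 genes, limma called 0 for this difference between the tissues, as it did 0% of all probes, and gave Hlf, Bhlhe41 and Rora an unadjusted p under 0.05, against 10.4% of all probes.

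**Figure D3:**
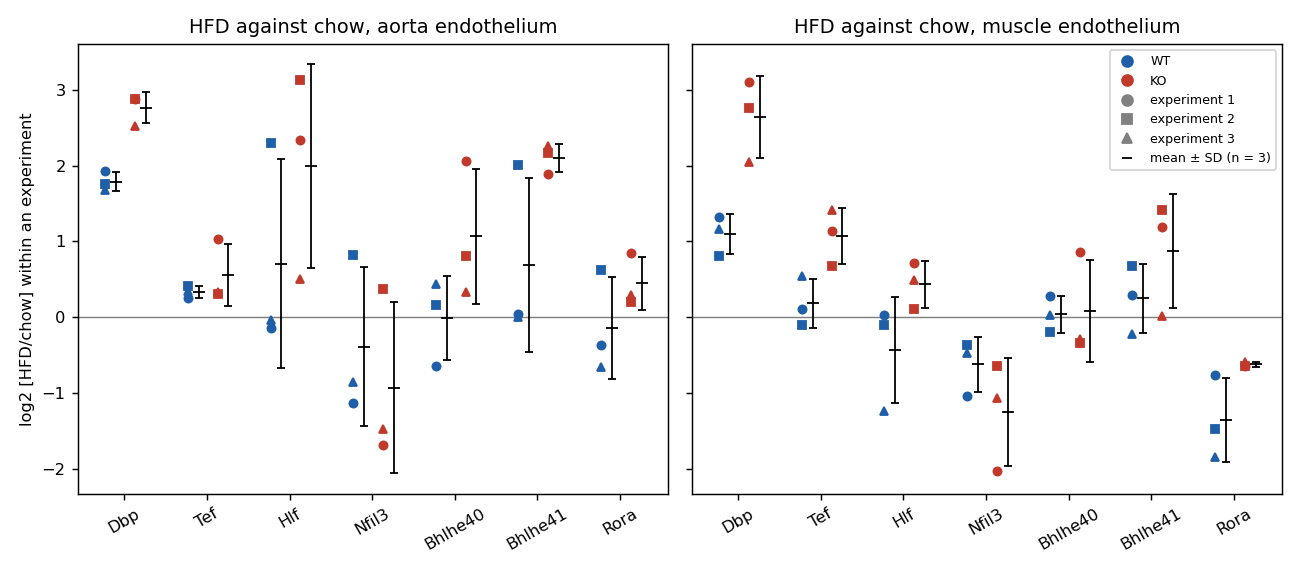
The log2 [HFD/chow] of the 7 genes within each experiment, in the aorta and in muscle. Points are the 3 experiments of WT (blue) and KO (red), bars are the mean ± SD of 3 ratios, and the grey line is 0. The Dbp ratios of KO lie above those of WT in both tissues.

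By the study's own criterion, a log2 [HFD/chow] past 1 in all 3 experiments of a strain and tissue, Dbp rose in WT aorta, KO aorta and KO muscle. The measured Bhlhe41 ratios of KO aorta were past 1 as well, but against chow signals not well above background. Set against the lowest signals well above background, the 1.80-fold does not reach the criterion. This criterion was met upward by 0.735% of the probes in WT aorta, 1.81% in KO aorta, 0.872% in WT muscle and 0.459% in KO muscle. No member met the criterion downward, as did 0.858%, 1.12%, 0.954% and 0.53% of the probes. Within a single strain limma called 0 of the 7 genes in the aorta and 0 of the 6 tested in muscle, and it called 0%, 0%, 0% and 0.00389% of all probes in WT aorta, KO aorta, WT muscle and KO muscle. At an unadjusted p under 0.05 by limma it was 1 gene in WT aorta (Dbp), 4 in KO aorta (Dbp, Hlf, Bhlhe40 and Bhlhe41), 2 in WT muscle (Dbp and Rora) and 4 in KO muscle (Dbp, Tef, Nfil3 and Rora), against 5.77%, 11.3%, 12.1% and 8.49% of all probes. The methods' test on the 3 ratios gave 2, 2, 1 and 3 genes at its unadjusted threshold and 0 after Benjamini-Hochberg adjustment.

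The question of the study, how galectin-3 alters the response to HFD, was set to these genes as the diet ratio in KO minus that in WT. For Dbp it was 0.97 (SE 0.34) in the aorta, 1.54 (SE 0.38) in muscle and 1.25 (SE 0.30) over both tissues. The 3 KO ratios lay above the 3 WT ratios in the aorta, as for 2.26% of probes, and in muscle, as for 4.17%. Both held for Dbp, and for 0.0949% of the 27387 probes. The exact permutation p was 0.1 in each tissue, the smallest that 3 against 3 ratios allow, and limma's adjusted p was 1.00 in the aorta, 0.999 in muscle and 1.00 over both. Without experiment 1 the Dbp ratio was 1.72 in WT and 2.70 in KO aorta, and 0.99 in WT and 2.40 in KO muscle. The muscle ratios of Tef, Hlf and Rora were likewise all higher in KO than in WT, by 0.89 (SE 0.34), 0.87 (SE 0.43) and 0.73 (SE 0.36), and without experiment 1 by 0.82, 0.97 and 1.04. With 1 experiment left out, whichever it was, the difference of Hlf ran from 0.44 to 1.20 and that of Rora from 0.47 to 1.04. Limma called 0 of the 7 genes for this difference, and 0% of all probes, with 1 gene (Dbp) in the aorta, 2 (Dbp and Tef) in muscle and 1 (Dbp) over both tissues at an unadjusted p under 0.05, against 2.62%, 4.12% and 2.63% of all probes. Without experiment 1 limma's unadjusted p for Dbp was 0.116 in the aorta, 0.038 in muscle and 0.041 over both tissues, and for Tef in muscle 0.18. The contrast over both tissues was added after the values of each tissue had been seen.

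Between the strains on 1 diet, limma called 0 of the members in either tissue, against 0.0116% of all probes in the aorta on chow, 0.00387% in the aorta on HFD and 0% in muscle on either diet. On chow, KO minus WT for Dbp was 0.48 (SE 0.64) in the aorta and -0.04 (SE 0.60) in muscle, and limma gave 0 members an unadjusted p under 0.05, against 4.41% and 2.42% of all probes. On HFD it was 1.45 (SE 0.64) in the aorta and 1.50 (SE 0.60) in muscle, with libraries of the strains overlapping in both. Within the experiments it was 1.11, 1.78 and 1.47 in the aorta and 2.07, 1.71 and 0.71 in muscle, above 0 in 6 of 6. With the slide, which is the experiment of a tissue, as a block the SE fell to 0.23 and 0.29, and limma's adjusted p was 1.00 and 0.854. Limma's unadjusted p with this block was 0.00017 for Dbp in the aorta on HFD. In muscle on HFD it was 0.00065 for Dbp, 0.0019 for Tef, 0.0043 for Hlf and 0.020 for Nfil3. On chow it was 0.038 for Bhlhe41 in the aorta, where that gene entered through its HFD groups. The share of all probes under 0.05 with this block was not counted. Without experiment 1 the Dbp difference on HFD was 1.63 in the aorta and 1.21 in muscle, and on chow 0.64 and -0.20. Without the block, Dbp in the aorta and Dbp, Tef and Nfil3 in muscle had an unadjusted p under 0.05 on HFD by limma. Of all probes, 1.15% and 3.15% did. Without experiment 1 limma's unadjusted p on HFD was 0.028 for Dbp in the aorta, and in muscle 0.030 for Dbp, 0.069 for Tef and 0.060 for Nfil3. Nfil3 in muscle on HFD gave -0.82 (SE 0.29), or -0.77 without experiment 1, and there the 3 KO libraries did not overlap the 3 WT libraries. The share of all probes that separated likewise was not counted. Over both tissues and diets KO minus WT was 0.85 (SE 0.44) for Dbp and 0.47 (SE 0.23) for Tef, and without experiment 1 0.82 and 0.43. Without a block limma gave 0 members an unadjusted p under 0.05, against 3.28% of all probes. With the experiment as a block limma's unadjusted p was 0.0055 for Dbp and 0.0081 for Tef, and the adjusted p 0.527 and 0.571.

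Of the 7 genes, 6 were called higher in aortic than in muscle endothelium of the same pools, and Dbp was not. The 6 include Bhlhe41, which entered this test through its aortic groups alone, where it is high. Averaged over the 4 groups, aorta minus muscle was 1.44 (SE 0.18, adjusted p = 0.000115 by limma) for Nfil3 and 1.20 (SE 0.13, adjusted p = 4.4e-05) for Bhlhe40. Both were higher in the aorta in 12 of 12 pools, as were 8.48% of all probes. Rora differed by 0.56 (SE 0.19), Hlf by 0.58 (SE 0.21) and Tef by 0.39 (SE 0.13), with adjusted p-values of 0.0260, 0.0358 and 0.0247 by limma. Dbp differed by 0.23 (SE 0.13), an interval of -0.05 to 0.52 at 95%, with an adjusted p of 0.144 by limma. For Bhlhe41 the difference was 1.34 (SE 0.19), with muscle levels mostly not well above background. Of all probes, 18% were called higher in the aorta, 38.3% lower, and the median over all probes was -0.27.

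**Figure D4:**
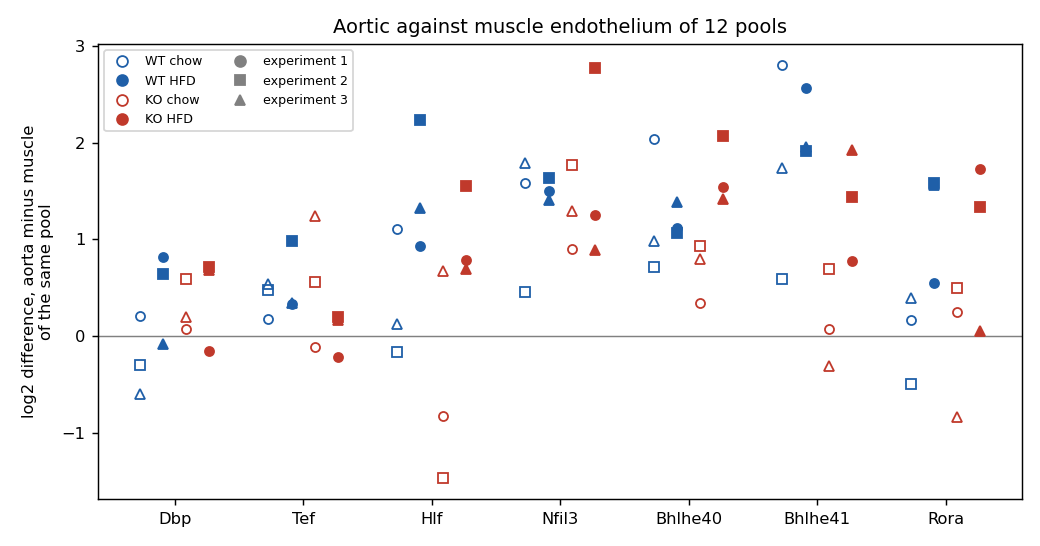
Aorta minus muscle of the same pool for the 7 genes, on the log2 scale. Each point is 1 of 12 pools, with open symbols for chow, filled for HFD, blue for WT and red for KO. All 12 points of Nfil3 and of Bhlhe40 lie above 0, while those of Dbp straddle it.

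Each slide held 1 tissue of 1 experiment. With the slide as a random block the count of members called fell from 6 to 2, Nfil3 and Bhlhe40, and with an experiment left out it was 3 to 4. By group, limma called 3 members higher in the aorta in WT on chow, 5 in WT on HFD, 1 in KO on chow and 3 in KO on HFD, against 9.51%, 10.3%, 5.78% and 10.4% of all probes. Bhlhe41 was among them in WT on both diets and in KO on HFD. Nfil3 was among them in all 4 groups, at 1.28, 1.51, 1.32 and 1.64, but its call in KO on chow (adjusted p = 0.0467 by limma) was lost without the block, with the slide as a random block, without the filter on dim probes and with any 1 experiment left out. Rora on chow gave 0.02 in WT and -0.03 in KO, and on HFD 1.23 in WT and 1.03 in KO, of which the WT value on HFD passed the test (adjusted p = 0.0377 by limma). Markers of other cells differed between the same libraries. All 8 fibroblast markers were called higher in the aorta, all 10 skeletal muscle fibre markers lower and 10 of 11 endothelial markers lower, with median differences of 4.16, -6.46 and -1.03. Their part in the results was not tested, and in sorted bulk cells fewer cells of a type and less RNA per cell cannot be told apart.

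The members were set against the rest of the clock through lists of genes. Of 19 core loop genes, 16 were tested in the aorta, 15 in muscle and 17 over both tissues. In muscle limma called 2 of them higher on HFD and 0 lower, Nr1d2 at 1.48 (SE 0.15, adjusted p = 0.0358) and Nr1d1 at 2.50 (SE 0.33, adjusted p = 0.0496), the repressors that compete with Rora. Both, like Dbp, were higher on HFD in 12 of 12 pairs. In the aorta 0 were called, with 3 higher and 4 lower at an unadjusted p under 0.05, among them Nr1d1 at 1.87 (SE 0.32), with an adjusted p of 0.116 by limma. The medians of the list were -0.16 in the aorta and -0.25 in muscle, against 0.01 and -0.01 over all probes.

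Genes known to peak with Dbp did not all move with it. Of 13 such genes, 11 were tested in each tissue, and limma called 0 in the aorta and 2 in muscle, which were again Nr1d1 and Nr1d2. Nr1d2 in the aorta was at 1.14 (SE 0.20), with an adjusted p of 0.121 by limma. In the aorta 8 were above 0 and 3 below, with a median of 0.21, and in muscle 5 were above and 6 below, with a median of -0.01. Ciart, Per1 and Per2 are named after their values were seen. Ciart was higher on HFD in 10 of 12 pairs, whereas Per1 was higher in 6 of 12 and Per2 in 3 of 12. Of the 6 genes of the Arntl phase, 0 of 6 tested in the aorta and 0 of 5 in muscle were called, with 4 and 2 lower at an unadjusted p under 0.05 and medians of -0.96 and -0.41. Arntl itself was lower on HFD in 11 of 12 pairs, at -0.97 (SE 0.18, adjusted p = 0.132 by limma) in the aorta and at -0.77 (SE 0.23, adjusted p = 0.188) in muscle, where Cdkn1a, a cell cycle inhibitor, was at -0.63 (SE 0.26, adjusted p = 0.300). Of 12 targets of the PAR bZIP factors, mainly genes of drug metabolism, 12 were tested in the aorta and 9 in muscle, and limma called 0 in either, with 2 higher and 3 lower at an unadjusted p under 0.05 in the aorta and 0 and 2 in muscle. The smallest p-values were those of the nuclear receptor Nr1i3, at -2.12 (SE 0.34), and Pdxk, at 0.96 (SE 0.31), in the aorta, and of Fmo5, at -0.52 (SE 0.15), and Nr1i3, at -1.67 (SE 0.58), in muscle.

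Arntl was the gene whose pattern over the libraries ran most opposite to that of Dbp. Over the 24 arrays, after subtraction of each tissue's mean, r between Dbp and Arntl was -0.93, the lowest of 14140 other genes with a tested probe. It was -0.96 in the 12 aortic and -0.91 in the 12 muscle libraries, and -0.81 after subtraction of the 8 group means. After subtraction of the slide means as well, which takes out the shifts between experiments, it was -0.39, against -0.52 for Prpf38b. These are descriptions over arrays that share experiments, slides and pools. In the aorta, Arntl was at 1.63 ± 0.26 and 0.76 ± 0.21 in WT on chow and HFD, and at 1.28 ± 0.45 and 0.21 ± 0.44 in KO (SD, n = 3). In muscle it was 1.76 ± 0.25 and 1.61 ± 0.57 in WT on chow and HFD, and 1.85 ± 0.15 and 0.46 ± 0.52 in KO. With Cry1, another gene of the Arntl phase, r of Dbp was -0.79, and with Nr1d1, Ciart and Nr1d2 it was 0.77, 0.78 and 0.62. With Per1 and Per2 it was -0.03 and 0.04. After subtraction of the group means r of Dbp with Nr1d1 was 0.04 and with Nr1d2 -0.27, so the likeness of these 2 genes to Dbp lay between the groups and not within them. With Ciart it was then 0.51 and with Cry1 -0.81, values that still hold the shifts between experiments.

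**Figure D5:**
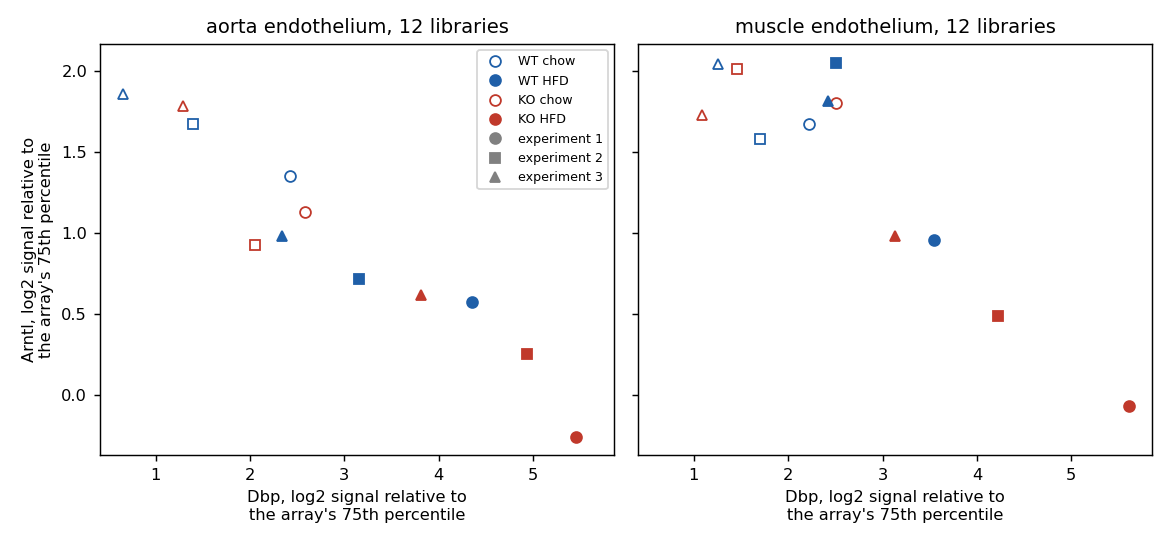
Arntl against Dbp in the 24 libraries, with the aorta at left and muscle at right. Both axes give levels (log2), open symbols are chow, filled symbols HFD, blue WT and red KO. The libraries run from high Arntl and low Dbp to the reverse, with KO on HFD of experiment 1 at the far end of both panels.

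Among themselves the members followed Dbp to different degrees. Over the 24 arrays, after subtraction of the tissue means, r with Dbp was 0.76 for Tef, 0.64 for Hlf, 0.63 for Bhlhe41, 0.12 for Bhlhe40, -0.14 for Rora and -0.57 for Nfil3. Within groups it was 0.52 for Tef, 0.72 for Hlf, 0.76 for Bhlhe41, -0.46 for Bhlhe40, 0.20 for Rora and 0.13 for Nfil3. The values within groups still hold the shifts between experiments, which Dbp and Hlf shared. For pairs of members r after subtraction of the slide means as well was not computed. The aorta and muscle of a pool were alike in Tef (r = 0.83 over 12 pools), Bhlhe41 (0.75), Nfil3 (0.65), Hlf (0.64) and Bhlhe40 (0.49), and not in Rora (-0.07). After subtraction of the group means r was 0.66 for Tef, 0.83 for Bhlhe41, 0.33 for Nfil3, 0.80 for Hlf, 0.59 for Bhlhe40 and -0.07 for Rora. These pools share mice and experiments. The values of Bhlhe41 rest in part on signals not well above background, above all in muscle. Aside from members, the 6 genes most like Dbp were Pcdha6 (0.87), Rac3 (0.87), Slc39a11 (0.86), Cdc25b (0.86), Ctsg (0.86) and Tmem132a (0.85), and after Arntl the least like were Prpf38b (-0.87), Smad1 (-0.87) and Donson (-0.83).

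For the other members the same measure named Dclk1 (0.76), Mfap4 (0.74) and Dpt (0.73) as most like Tef, with Arntl (-0.75) and Ccdc84 (-0.74) least like it. Hlf was most like Slc41a3 (0.88), Cntfr (0.88) and Arhgef17 (0.87) and least like Cep70 (-0.84) and Entpd1 (-0.83). Nfil3 was most like Ccn2 (0.79), Gdpd1 (0.71) and Ing1 (0.70), and least like Eif2ak2 (-0.74) and Nr1d1 (-0.73), whose product represses Nfil3. Bhlhe40 was most like Tmem245 (0.79), Nup107 (0.77) and Tmem39a (0.77), and least like Pmvk (-0.81) and Pcx (-0.80). Bhlhe41 was most like Arhgef10l (0.91), Il17d (0.91) and Klhl42 (0.90), and least like Ivns1abp (-0.88) and Ndufs1 (-0.85). The Bhlhe41 probe was well above background on 8 of 12 aortic and 2 of 12 muscle arrays, so its r rests in part on signals near background. Rora was most like Cdc14b (0.77), Loxl3 (0.76) and Rasa3 (0.72), and least like St6galnac4 (-0.82) and Sp110 (-0.81). Each r is over 24 arrays and 14140 genes. The named genes were chosen by r over these same arrays. A sign kept after further subtraction is therefore in part built in and is not a separate check. After subtraction of the group and slide means, r kept its sign for 38 of the 40 genes named as most or least like a member, and its size in that direction had a median of 0.64. For Tef it kept its sign for 3 of 5, with r of 0.00 for Dpt, 0.01 for Arntl and 0.22 for Ccdc84.

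Markers of other cell types differed between the diets in the libraries that gave the Dbp results. Of 12 adipocyte markers, 11 were tested in the aorta, where limma called 2 lower on HFD and 9 were lower at an unadjusted p under 0.05, while Lep was well above background on no aortic array. Their summed signal, relative to the 75th percentile, was 228.2 to 297.2 in WT and 254.3 to 560.8 in KO on chow, and 121.0 to 142.3 and 102.2 to 177.5 on HFD. In muscle the sum was 194.1 to 205.8 in WT and 226.5 to 300.5 in KO on chow and 164.2 to 208.1 and 180.4 to 259.8 on HFD, with 1 of 11 markers called lower, 10 of 11 below 0 and a median of -0.46. All 11 endothelial markers were below 0 in the aorta on HFD, with a median of -0.62, and 7 of 11 in muscle, with a median of -0.02, and 0 were called. All 8 fibroblast markers were above 0 in both tissues, with medians of 0.60 and 1.02, and 0 were called. Of the macrophage markers, 7 were tested in the aorta, with a median of -0.69, and 6 in muscle, with a median of 1.77, and 0 were called. In muscle their summed signal was 1.66 to 2.93 in WT and 1.83 to 2.71 in KO on chow, and 1.85 to 5.16 and 1.45 to 11.3 on HFD. The 6 brown adipocyte markers had a median of -1.13 in the aorta, where 0 were called. The part of these cells in the values of Dbp and of the other members was not tested.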

How the data were processed

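CD105+/CD45- cells of aorta and skeletal muscle were measured on 24 single-colour Agilent arrays. Per the file headers, the deposited intensity values are processed signals of Feature Extraction 10.5.1.1, background subtracted and detrended within the array, while the submitters' processing notes name version 9.1. The deposited log2 table of the authors equals the log2 of these signals plus 1 constant per array and served as an alternative.

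Intensities were divided by the array's 75th percentile over non-control spots and taken to log2. Outlier spots were left out and spots of a probe averaged. Accessions were matched to gene symbols through a RefSeq gene table (GRCm38.p6). A probe entered a test where it was well above background on all 3 arrays of any group. HFD was compared with chow by limma 3.58.1 (R 4.3.3) across all probes with a block for each strain and experiment, since the methods paired these; strains were compared without a block and tissues with a block for each pool, whose aorta and muscle came from the same mice by the series' design. P-values were adjusted by Benjamini-Hochberg over all probes and called under 0.05. Exact tests are two-sided. The fits were checked on simulated data.

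All 7 members are named, and of each list the genes past the threshold, at most 4, or else the 2 with the smallest p, for diet in each tissue over the strains, except 1 gene that is not reported here. The 6 most and 4 least alike genes are named for Dbp, and 3 and 2 for the others. Members and lists were chosen with earlier results of these data known. Alternatives were normexp (offset 50, on median signals, as the files hold no mean signal), quantile normalization, the deposited table, other filters, other probes, other blocks and each experiment left out. Same-numbered HFD and chow libraries deviated together with r between 0.03 and 0.54 (9 of 12 above 0.1), same-numbered KO and WT libraries of a tissue had a median of 0.32 (20 of 24 above 0.1) and those of aorta and muscle 0.25, while differently numbered libraries of a tissue had a median of -0.16. The number of arrays limits the precision.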

Additional observations from a re-analysis of the deposited data

Results flagged for a closer look

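The Rora ratios of KO mice had opposite signs in the tissues, although neither mean passed the test (adjusted p = 0.626 in the aorta and 0.585 in muscle by limma). All 3 aortic ratios of HFD to chow were above 0 (0.85, 0.20 and 0.30) and all 3 muscle ratios below 0 (-0.64, -0.64 and -0.58), so that the mean response in the aorta exceeded that in muscle by 1.07 on the log2 scale. The difference within KO was not tested by itself. Averaged over both strains the difference between the tissues was 1.14, with an adjusted p of 0.346 by limma. The adipocyte markers, which in KO had summed signals of 254.3 to 560.8 on chow and 102.2 to 177.5 on HFD in the aorta and of 226.5 to 300.5 and 180.4 to 259.8 in muscle, moved with diet in the same libraries, and their part in this difference was not tested.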

How the results depend on the processing

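Dbp kept its direction under every alternative of the 3 diet comparisons averaged over strains. The count of members called in each of them, 1 in the report, was 0 in the aorta, in muscle and over both tissues without the replicate block, 0 in all 3 without the filter on dim probes and 0 with any 1 experiment left out, when each fit had fewer samples. It was 2 in muscle with the slide as a replicate block and with a strict filter on dim probes, Dbp and Rora. Within KO the count of members called for diet rose from 0 to 1 in the aorta with normexp, with the strict filter and with the slide as a replicate block, and from 0 to 1 in muscle with normexp and with the strict filter. For aorta minus muscle averaged over groups it fell from 6 to 2 with the slide as a random block and to 3 to 4 with an experiment left out. By group it was 0 (KO on chow), 3 (WT on HFD) and 1 (WT on chow) both without the replicate block and with the slide as a random block, while KO on chow gave 2 with the deposited table and 0 without the filter. With an experiment left out it was 0 to 1 in KO on HFD, 0 in KO on chow, 0 to 2 in WT on HFD and 0 to 3 in WT on chow. The cause of these changes was not tested. Values that were not called and changed sign were 0.013 for Bhlhe40 in aorta WT HFD minus chow with quantile normalization. With normexp background correction they were 0.0054 for Bhlhe40 in both tissues and diets KO minus WT, -0.099 for Bhlhe41 in KO chow aorta minus muscle, -1e-04 for Rora in WT chow aorta minus muscle. The deposited log2 table gave 0.040 for Dbp in WT chow aorta minus muscle, 0.24 for Rora in KO chow aorta minus muscle. Another probe of the gene gave 0.042 for Rora in KO chow aorta minus muscle, -0.0088 for Rora in WT chow aorta minus muscle, 0.014 for Rora in aorta WT HFD minus chow, -0.0075 for Tef in WT HFD aorta minus muscle, -0.49 for Tef in aorta WT HFD minus chow, -1.39 for Tef in aorta chow KO minus WT. With an experiment left out, Bhlhe40 changed sign within -0.24 to 0.30 for aorta WT HFD minus chow, -0.93 to 0.11 for aorta chow KO minus WT, -0.091 to 0.11 for both tissues and diets KO minus WT, -0.14 to 0.21 for muscle HFD KO minus WT, -0.31 to 0.29 for muscle KO HFD minus chow, -0.081 to 0.16 for muscle WT HFD minus chow, -0.19 to 0.087 for muscle chow KO minus WT, -0.23 to 0.22 for muscle diet response KO minus WT, -0.19 to 0.22 for muscle mean of strains HFD minus chow. With 1 experiment fewer, Bhlhe41 changed sign within -0.12 to 0.38 for KO chow aorta minus muscle, -0.76 to 0.30 for aorta HFD KO minus WT, -0.96 to 0.0083 for both tissues and diets KO minus WT. Likewise, Dbp changed sign within -0.20 to 0.060 for muscle chow KO minus WT. Under the same alternative, Hlf changed sign within -0.023 to 0.61 for WT chow aorta minus muscle, -0.086 to 1.13 for aorta WT HFD minus chow, -0.18 to 0.19 for muscle mean of strains HFD minus chow. In the same way, Nfil3 changed sign within -0.55 to 0.073 for aorta chow KO minus WT, -0.13 to 0.61 for aorta less muscle mean of strains HFD minus chow, -0.34 to 0.042 for muscle chow KO minus WT. As before, Rora changed sign within -0.30 to 0.37 for KO chow aorta minus muscle, -0.17 to 0.27 for WT chow aorta minus muscle, -0.25 to 0.47 for aorta HFD KO minus WT, -0.51 to 0.13 for aorta WT HFD minus chow, -0.95 to 0.077 for aorta chow KO minus WT, -0.22 to 0.026 for both tissues and diets KO minus WT. Lastly, Tef changed sign within -0.031 to 0.18 for KO HFD aorta minus muscle, -0.056 to 0.38 for aorta diet response KO minus WT, -0.31 to 0.047 for aorta less muscle mean of strains HFD minus chow. Of the other single values, 1290 kept their direction and their side of the threshold, 75 were no longer called and 14 became called. No count of members called at the adjusted threshold for KO against WT changed with the replicate block, although unadjusted p-values did. Over all probes the count called for diet was 8 in the aorta, 74 in muscle and 65 over both tissues, against 0 to 58, 0 to 274 and 0 to 373 under the alternatives, and for aorta minus muscle it was 15402, against 7715 to 16148.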

Other observations

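Of 12 targets of the PAR bZIP factors, limma called 7 higher and 1 lower in aortic than in muscle endothelium, with a median difference of 1.01 on the log2 scale, against -0.27 over all probes. Gsta3, a glutathione transferase, was higher by 6.24 (SE 0.23), Cyp2b10, a cytochrome P450, by 5.62 (SE 0.21), the lipid sensor Ppara by 3.00 (SE 0.34) and Pdxk, a kinase of vitamin B6 metabolism, by 2.21 (SE 0.15). All 6 brown adipocyte markers were also higher in the aorta, 5 of them called, with a median of 5.51. The part of other cells in the values of the targets was not tested.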
